A study of Rattus norvegicus with 9 samples.

Results

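The nuclear genes for respiratory complexes II to V were followed in gastric lymphatic vessels of the rat, the collecting vessels that drain lymph from the stomach wall. Members were all genes whose symbol names a succinate dehydrogenase subunit, a cytochrome bc1 complex subunit, a cytochrome c, a cytochrome c oxidase subunit or an ATP synthase subunit, with Cox7a1 and Cox8b left aside. This gave 45 of the 18964 genes in the table: 4 for complex II, 9 for complex III, 14 for complex IV, 15 for complex V, 1 for the soluble carrier cytochrome c, and 2 (Atp5s and Atp5sl) that carry an Atp5 symbol but are not subunits. All 45 passed the filter on low counts that left 14643 genes for testing. The rule used names alone and no measured value.

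The 9 libraries, 3 for each of 3 groups, came from male Sprague-Dawley rats of wild-type genotype, and every group was fasted for 12 h. Control rats received no stress and a gavage of water. Model rats spent 4 h in water 15 cm deep at 22 °C, a procedure used to produce gastric ulcers, and 30 min later received a gavage at 10 ml per kg that the labels call saline and the protocol distilled water. The BXD group was stressed in the same way and then given Banxia Xiexin decoction, a herbal preparation of Chinese medicine, in the same volume. The labels do not say which rat or rats each library came from, so a p-value reflects only how far these libraries spread, which may be technical. Total counts ran from 12313813 to 13455705 a library. Markers of lymphatic endothelium, all 10 of which were in the table, summed to between 939 and 2050 CPM (counts relative to the composition-scaled library size) in every library. Markers of adipocytes summed to more, between 6919 and 30937 CPM.

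Electrons enter the chain through complex I and complex II (succinate dehydrogenase), pass by ubiquinone to complex III (the cytochrome bc1 complex), by cytochrome c to complex IV (cytochrome c oxidase) and from there to oxygen. Complexes III and IV pump protons out of the mitochondrial matrix, and complex V (ATP synthase) lets them back through its membrane rotor to make ATP. Complex II is encoded by nuclear genes alone, whereas III, IV and V also hold subunits of the mitochondrial genome. Several complex IV subunits exist as a general form and a form typical of striated muscle, lung or testis, and collecting lymphatic vessels depend on ATP for the rhythmic contraction of their muscle coat.

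The region before the transcription start is shown for cytochrome c, whose gene had the largest change among abundant members, and for the 3 genes of the ATP synthase c ring, which did not change alike. It is also shown for Cox6a2, whose counts were high in some BXD libraries only. Each line gives the 250 bases upstream of the start from RefSeq (rat build GRCr8, not the Rnor_6.0 build of the count table), 5′ to 3′. Capitals mark a match on either strand to GCATGCGC (bound by NRF1), CCGGAAG (the ETS family, to which GABPA belongs) or AAGGTCA (oestrogen-related receptors), all of which are factors known for their part in mitochondrial gene expression.
Cycs, chr4:80984768-80985017, minus strand: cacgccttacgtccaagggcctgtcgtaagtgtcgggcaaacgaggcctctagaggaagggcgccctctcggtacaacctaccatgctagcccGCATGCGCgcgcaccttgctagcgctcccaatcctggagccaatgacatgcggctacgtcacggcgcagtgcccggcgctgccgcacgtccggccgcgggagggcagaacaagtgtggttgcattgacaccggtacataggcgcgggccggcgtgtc
Atp5g1, chr10:81523346-81523595, minus strand: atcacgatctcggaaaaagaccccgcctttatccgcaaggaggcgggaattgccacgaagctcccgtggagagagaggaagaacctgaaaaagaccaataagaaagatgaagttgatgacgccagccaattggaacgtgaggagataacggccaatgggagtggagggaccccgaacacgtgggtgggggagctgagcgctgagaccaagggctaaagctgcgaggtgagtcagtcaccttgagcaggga
Atp5g2, chr7:135678219-135678468, minus strand: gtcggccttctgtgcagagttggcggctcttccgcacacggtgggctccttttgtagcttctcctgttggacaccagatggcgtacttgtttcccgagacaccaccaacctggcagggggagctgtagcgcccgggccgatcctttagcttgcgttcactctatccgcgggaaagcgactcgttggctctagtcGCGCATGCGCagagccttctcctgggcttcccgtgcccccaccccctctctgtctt
Atp5g3, chr3:79220665-79220914, minus strand: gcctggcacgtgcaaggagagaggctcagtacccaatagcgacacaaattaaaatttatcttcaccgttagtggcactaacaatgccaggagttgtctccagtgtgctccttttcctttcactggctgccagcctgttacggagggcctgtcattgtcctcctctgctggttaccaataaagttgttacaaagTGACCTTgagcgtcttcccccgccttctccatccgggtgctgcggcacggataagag
Cox6a2, chr1:192219717-192219966, minus strand: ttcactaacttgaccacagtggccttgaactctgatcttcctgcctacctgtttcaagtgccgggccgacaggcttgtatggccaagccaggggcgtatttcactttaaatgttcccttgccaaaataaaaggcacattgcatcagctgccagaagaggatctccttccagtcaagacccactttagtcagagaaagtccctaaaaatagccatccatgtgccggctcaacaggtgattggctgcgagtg

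Cycs held 1 NRF1 match, at position -157 from the start. Atp5g2 held a pair of overlapping NRF1 matches, 1 on each strand, that share the capitals of its line. Atp5g3 held 1 oestrogen-related receptor match on the reverse strand, at -57. In the windows of Atp5g1 and Cox6a2 none of these letters occurred. A RefSeq window was found for 37 of the 45 members, and Cyc1, Uqcr11, Uqcrb, Cox4i2, Cox6a1, Cox6c, Atp5h and Atp5sl had no entry. Of the 37, the NRF1 letters were in 7 (18.9%), against 4.33% of 11445 windows of tested genes. The ETS letters were in 12 (32.4%, against 14.1%) and the oestrogen-related receptor letters in 5 (13.5%, against 2.54%). At least 1 of the motifs was in 18 windows (48.6%, against 19.9%). These are matches of letters in one window, a description and not a measure of binding.

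Before single genes, the members can be read as a sum. They made up 1.12%, 1.05% and 0.872% of all counts in control replicates 1 to 3, 1.44%, 2.35% and 1.48% in the model, and 1.01%, 1.08% and 1.33% in BXD. Every model library lay above every control library, and BXD replicates 1 and 2 lay within the control range. Wilson 95% intervals were narrow, as in 2.34% to 2.36% for model replicate 2, and cover counting error only. Model replicate 2 stood apart: it was the highest of the 9 libraries for 40 of the 45 members, and control replicate 3 was the lowest for 36. Over 43 members (Cox6a2 and Atp5f1 have too many zeros for a ratio), the median log2 level relative to the control mean was 0.67, 1.39 and 0.62 in model replicates 1 to 3. It was 0.19, 0.25 and 0.49 in the BXD libraries, and 0.16, 0.02 and -0.20 in the controls themselves.

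**Figure D1:**
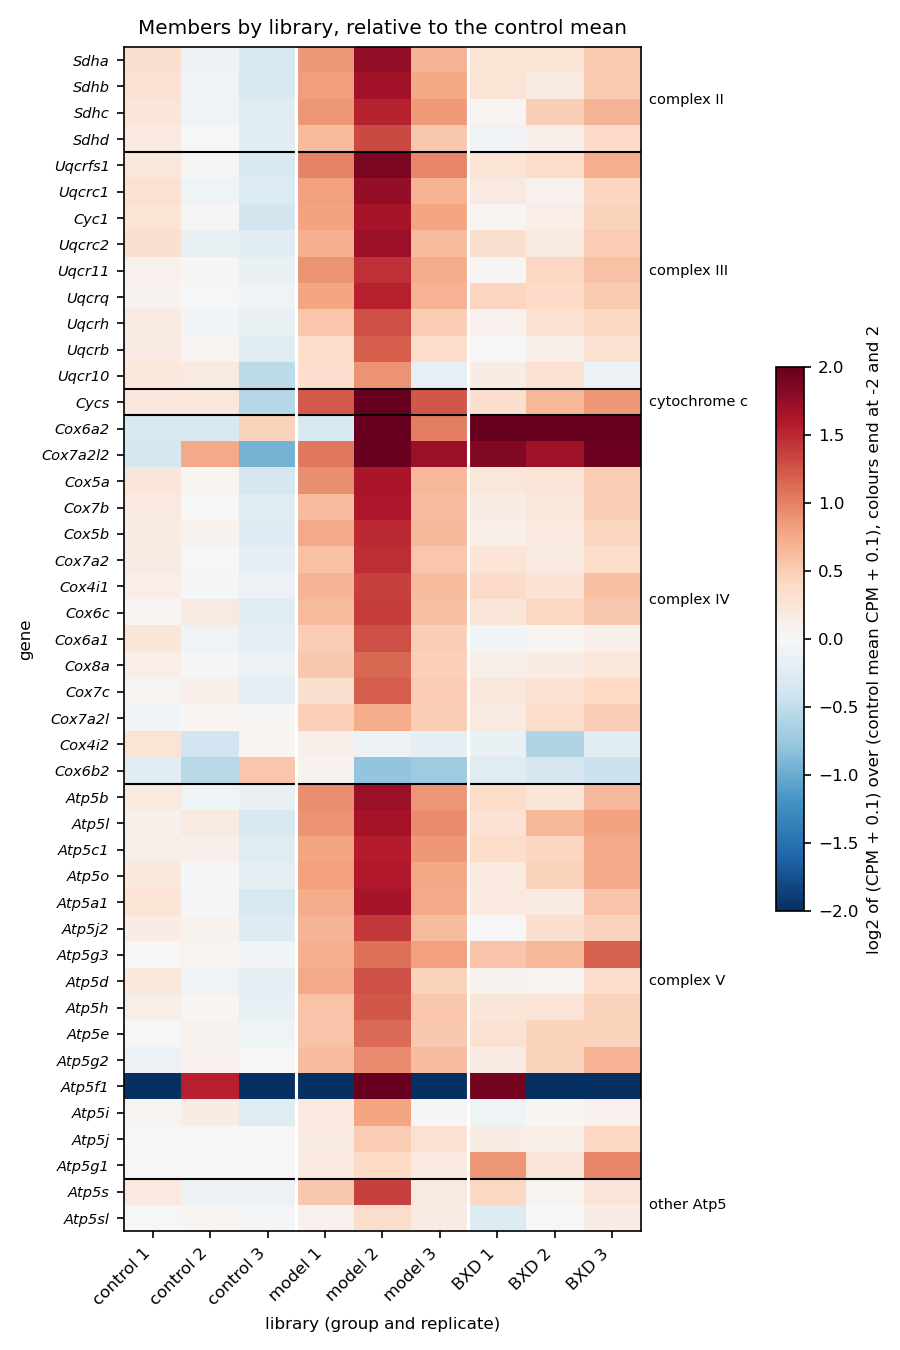
Each row is a member, grouped by complex, and each column a library; the colour is the log2 of its CPM over the mean of the 3 control libraries, with 0.1 CPM added to both and the colours ending at -2 and 2. Model replicate 2 is the highest library in 40 of the 45 rows; Cox4i2 and Cox6b2 are highest in a control library, and Cox6a2, Atp5g1 and Atp5g3 in a BXD library.

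In the model against control, 37 of the 45 members rose and 0 fell at an adjusted p under 0.05 (edgeR quasi-likelihood test with Benjamini-Hochberg adjustment over all genes, here referred to as called). Among all genes tested, 21.6% were called higher and 20.6% lower, so that 51.2% of all calls were higher. That share was 37.7% after scaling by the upper quartile, 24.8% by library size only and 26.1% in a fit of FPKM, which moved the median of all genes to between -0.28 and -0.14 on the log2 scale, and the members called were then 34, 31 and 31 higher and 0 lower. The median log2 fold change of the members was 0.93, against -0.01 over all genes tested, and 43 of the 45 values were above 0. For 38 members all 3 model libraries exceeded all 3 controls, a pattern that 28.9% of tested genes showed in that direction. Calls fell to 34 with a median of 0.63 without model replicate 2, and to 27 without control replicate 3. Those 27 members remained called whichever of the 9 libraries was left out, and 26 remained under the other scalings and tools as well. The exceptions were Atp5j, Atp5s, Uqcrb, Cox7c, Cox6a1, Uqcrc2, Cox7a2, Cox7b, Sdhd and Uqcrh when single libraries were left out, and Cox7a2l under other scalings. A bulk sample cannot tell more cells of a type from more RNA per cell. For the 37 genes taken by name as complex I subunits (Ndufa4 and Ndufa4l2 among them) the count was 32 called higher, 0 lower, with a median of 0.86.

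**Figure D2:**
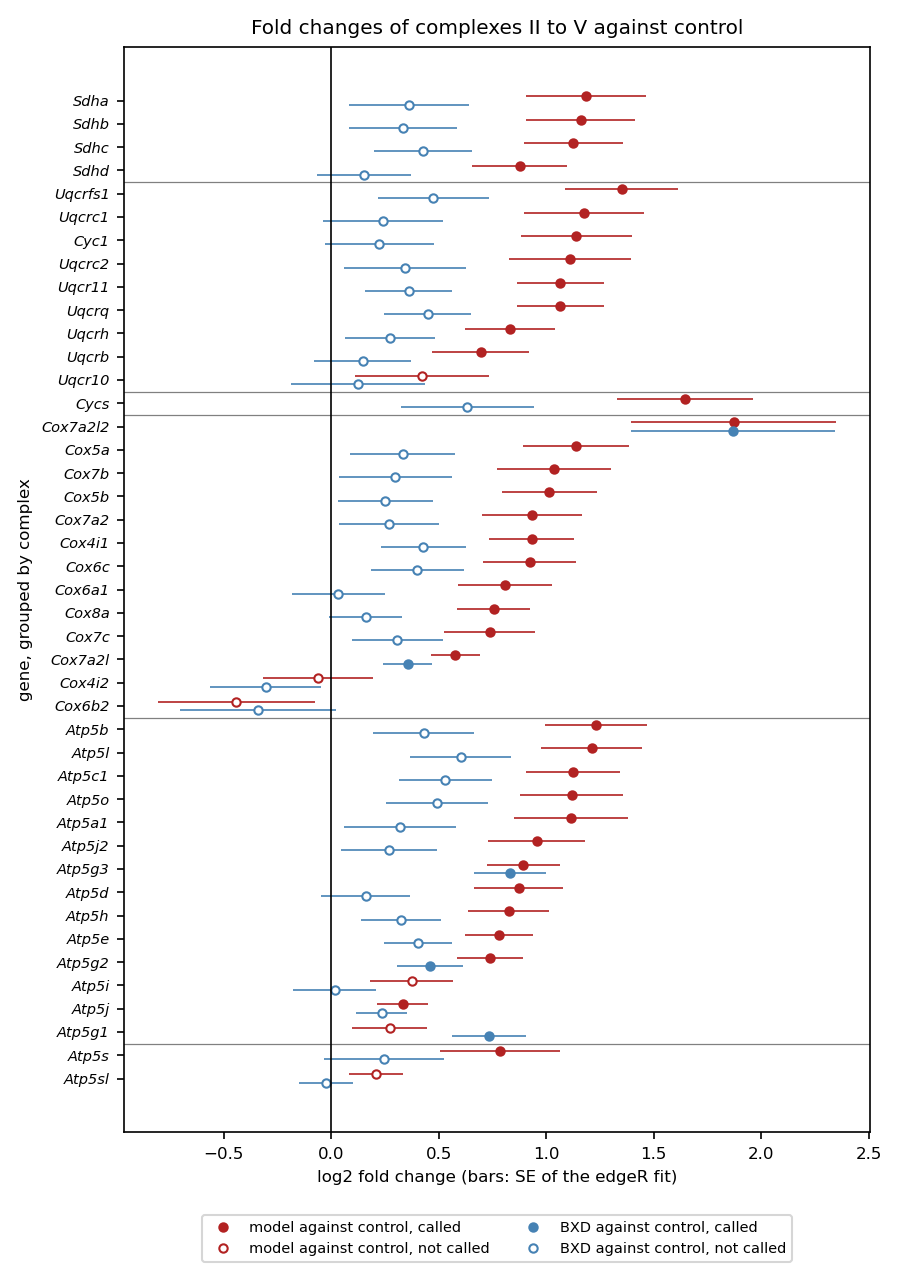
Points give the log2 fold change of each member for model against control (red) and BXD against control (blue), bars the SE of the edgeR fit, and filled points are called at an adjusted p under 0.05. Most red points lie near 1 and filled while most blue points lie between 0 and 0.60 and open; Cox6a2 and Atp5f1, whose values rest on few libraries, are not drawn.

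All 4 complex II genes rose in the model, with a median of 1.14. Sdha, the flavoprotein that oxidises succinate, was at 481, 358 and 312 CPM in the controls, 702, 1304 and 612 in the model and 462, 463 and 554 in BXD. The model libraries were all above the controls, and the BXD libraries overlapped the controls. Its log2 fold change was 1.19 ± 0.28 (SE, n = 3 a group, adjusted p 0.00987), and that of Sdhb, the iron-sulfur subunit that passes the electrons on, was 1.16 ± 0.25 (adjusted p 0.0071). Sdhc and Sdhd anchor the enzyme in the membrane and hold the ubiquinone site. Sdhc rose by 1.13 ± 0.23 (adjusted p 0.00539), from 193, 154 and 141 CPM to 298, 474 and 292. Sdhd rose by 0.88 ± 0.22 (adjusted p 0.0127), from 229, 200 and 170 CPM to 310, 499 and 291, and lost its call without control replicate 3. On a per-length scale the 4 genes were expressed at like levels, with control means of 209 to 269 FPKM (fragments scaled to gene length and depth).

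In complex III, 8 of 9 genes rose, with a median of 1.07. The redox subunits and the 2 core proteins (Uqcrfs1, Cyc1, Uqcrc1 and Uqcrc2) had a median of 1.16, and the 5 small subunits one of 0.83. Uqcrfs1, the Rieske iron-sulfur protein, was at 265, 229 and 183 CPM in the controls, 447, 833 and 446 in the model and 274, 292 and 374 in BXD. All BXD libraries were above the controls and below the model for this gene. Its rise in the model was 1.35 ± 0.26 (adjusted p 0.00431). Uqcrc1, a core protein, went from 370, 281 and 246 CPM to 526, 1016 and 486, a log2 fold change of 1.18 ± 0.28 (adjusted p 0.0102). Its locus lies inside the annotated span of Col7a1 on the same strand, a gene with a mean of 39.1 CPM against 443 for Uqcrc1. Cyc1, the haem protein that hands electrons to cytochrome c, rose by 1.14 ± 0.26 (adjusted p 0.00808). Uqcrq, a small subunit with the highest mean level of the complex (590 ± 25.9 FPKM in the controls, SD), rose by 1.06 ± 0.20 (adjusted p 0.00398), and Uqcrb, the smallest called change, by 0.70 ± 0.23 (adjusted p 0.0344). The other called genes were the core protein Uqcrc2 and the small subunits Uqcr11 and Uqcrh, at 0.83 to 1.11. Uqcrb lost its call without control replicate 1, 2 or 3, without model replicate 2 and without BXD replicate 2.

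Uqcr10 was the complex III gene without a call, at 0.42 ± 0.31 (adjusted p 0.302). Its control mean of 38.7 FPKM was low for the complex. A locus that RefSeq names as its pseudogene, Uqcr10-ps1 (RGD2320734 in the table), was listed at 819 to 991 FPKM in the controls and 1080 to 1959 in the model, and rose by 0.80 ± 0.24 (adjusted p 0.0255). The estimated counts of these near-identical copies added up to a whole number in every library, as where reads are divided between both loci. The larger part was at the pseudogene. The sources used here do not say how reads were divided, so the value of Uqcr10 and its lack of a call are uncertain.

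Cycs, the mobile carrier between complexes III and IV and a trigger of apoptosis when it leaves the mitochondrion, was at 497, 495 and 288 CPM in the controls. It reached 999.9, 1998 and 1012 CPM in the model and 534, 674 and 779.8 in BXD. The groups did not overlap: BXD lay between control and model. The gene lies on the minus strand of chromosome 4 at 80331226 to 80333326 in Rnor_6.0. The model against control change was 1.65 ± 0.32 (adjusted p 0.0042), and it was 1.24 without model replicate 2. A locus that RefSeq names as a cytochrome c pseudogene, Cycs-ps9 (LOC100363502 in the table), held 0, 0 and 7.33 estimated counts in the controls, 1635, 3112 and 53.0 in the model and 988, 1266 and 1442 in BXD. Model replicate 3 was thus far below the other model libraries at that locus. At its levels of at most 279 CPM it was below Cycs in every library. Its estimated counts and those of Cycs added up to a whole number in each library, as where reads are divided between both loci. That division was uneven, with a far smaller part at the pseudogene in the controls and model replicate 3 than elsewhere. The levels and changes of Cycs are therefore uncertain in size. Hccs, the enzyme that attaches haem to cytochrome c, had a log2 fold change of 0.69 (adjusted p 0.085).

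Of the 14 complex IV genes, 11 rose, 0 fell, and the median was 0.93. Cox4i1, the general form of subunit 4 and the member with the highest mean level per length (1590 ± 124 FPKM in the controls), went from 642, 579 and 540 CPM to 937, 1513 and 909, with 768, 716 and 886 in BXD. Its log2 fold change was 0.93 ± 0.20 (adjusted p 0.00646). Cox6a1, the general form of subunit 6a, rose by 0.81 ± 0.22 (adjusted p 0.0167, lost without control replicate 2 or 3). Cox8a rose by 0.76 ± 0.17 (adjusted p 0.00818), and Cox7a2 by 0.93 ± 0.23 (adjusted p 0.0122, lost without control replicate 3). Cox5a, Cox5b, Cox6c, Cox7b and Cox7c, nuclear subunits around the catalytic core, rose by 0.74 to 1.14. Cox7a2l, which takes part in joining complexes III and IV into supercomplexes, had a tight rise from 146, 155 and 154 CPM to 212, 253 and 214, or 0.58 ± 0.11 (adjusted p 0.00467).

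Cox7a2l2 had the largest called value, 1.87 ± 0.48 (adjusted p 0.0131), on few counts. It went from 1.18, 2.66 and 0.745 CPM to 3.28, 8.62 and 5.29, and stood at 5.78, 5.14 and 6.22 in BXD. Its estimated counts were not whole (16.6, 41.0 and 10.6 in the controls). In every library they added up with those of Cox7a2 to a whole number, as where reads are divided between both loci. Cox7a2 held by far the larger part, so the value of Cox7a2l2 is uncertain. Cox6b1, the general form of subunit 6b, is absent under that symbol, but the table's LOC688869 is Cox6b1 in RefSeq: it was outside the rule and rose by 0.94 ± 0.22 (adjusted p 0.00905).

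Of complex IV, 3 forms did not pass the test in the model. Cox4i2, the lung form of subunit 4, stood at 4.54, 2.86 and 3.86 CPM in the controls and 4.03, 3.49 and 3.27 in the model, with a log2 fold change of -0.06 ± 0.26 (adjusted p 0.863). Cox6b2, known as the testis form of subunit 6b, stood at 2.70, 2.14 and 4.70 CPM in the controls and 3.33, 1.79 and 1.90 in the model, or -0.44 ± 0.36 (adjusted p 0.352). Cox6a2, the heart and skeletal muscle form of subunit 6a (chromosome 1, 199624037 to 199626255, minus strand, Rnor_6.0), had 0, 0 and 1 counts in the controls, 0, 36 and 2 in the model and 439, 6 and 315 in BXD. The ratio of its summed, depth-scaled counts in the model to those in the controls was 46.5 (exact 95% interval 7.86 to 1885, counting error only), which rests on model replicate 2 (adjusted p 0.155).

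Complex V had 12 of 15 genes higher and 0 lower in the model, with a median of 0.87. The 5 genes of the F1 head, the catalytic part in the matrix, all rose, with a median of 1.12. Atp5b, the catalytic beta subunit, had the highest mean level of the complex over all 9 libraries, with control, model and BXD means of 1266, 2453 and 1483 FPKM; in the controls alone Atp5i was higher, at 1409 FPKM. It went from 1926, 1584 and 1515 CPM to 3188, 5546 and 3073, with 2154, 1989 and 2632 in BXD, a model against control change of 1.23 ± 0.24 (adjusted p 0.00422). The 3 groups did not overlap for this gene, and BXD lay between control and model. The alpha, gamma, delta and epsilon subunits of the head (Atp5a1, Atp5c1, Atp5d and Atp5e) rose by 0.78 to 1.13. Among 7 stalk and membrane genes 5 rose, with a median of 0.82. Atp5l, the g subunit of the membrane part, rose by 1.21 ± 0.24 (adjusted p 0.00435), Atp5h, Atp5j2 and Atp5o by 0.82 to 1.12, and Atp5j, coupling factor 6 of the stalk, by 0.33 ± 0.12 (adjusted p 0.0478).

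The call for Atp5j did not survive leaving out control replicate 1, 2 or 3, model replicate 2 or 3, or BXD replicate 2. Its annotated span shares 575 bases with Gabpa on the opposite strand, and without strand information reads from there cannot be told apart. Atp5i, the e subunit, was at 50.5, 54.0 and 40.8 CPM in the controls and 55.7, 83.7 and 49.1 in the model, groups that overlap (0.37 ± 0.19, adjusted p 0.147). Atp5f1, the b subunit of the stator, was listed at 186, 184 and 185 estimated counts in control replicate 2, model replicate 2 and BXD replicate 1 and at 0 in the other 6 libraries. A structural subunit at 0 beside the other 14 subunits, whose lowest control mean was 119.6 FPKM, can be a failed estimate. Its log2 fold change is therefore not read as a result, though Atp5f1 stays in the counts and medians of the members and of complex V.

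The c ring, the membrane rotor through which protons pass, is built from identical proteins made by 3 genes that differ in their import sequences. In Rnor_6.0 they lie on 3 chromosomes, all on the minus strand: Atp5g1 on 10 at 83895941 to 83898640, Atp5g2 on 7 at 144264207 to 144272578 and Atp5g3 on 3 at 60811218 to 60813903. Atp5g3 rose from 146, 153 and 142 CPM to 244, 314 and 260 in the model, or 0.89 ± 0.17 (adjusted p 0.00376), and Atp5g2 from 95.3, 109.9 and 104 to 158, 199 and 158, or 0.74 ± 0.15 (adjusted p 0.00572). Atp5g1 stood at 33.8, 34.2 and 34.0 CPM in the controls and 39.0, 45.1 and 39.1 in the model, with a log2 fold change of 0.27 ± 0.17 (adjusted p 0.233) that was -0.0026 with scaling by library size alone. The 3 model values of Atp5g1 were above the 3 controls, by less than for its partners.

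Of the 2 genes that share the Atp5 name only, which RefSeq calls Dmac2l and Dmac2, Atp5s rose by 0.79 ± 0.28 (adjusted p 0.048). That call was lost on leaving out any 1 library other than model replicate 3. Atp5sl had a value of 0.21 ± 0.13 (adjusted p 0.209), which turned to -0.067 with library size alone. Both lay at low levels, with control means of 7.24 and 25.2 FPKM.

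Isoform balance was measured as the log2 ratio of FPKM values within a library, to which a pseudocount of 0.1 FPKM was added, for 9 pairs. Each was compared by a two-sided exact permutation test, for which 3 against 3 libraries allow no p below 0.1. Over the 27 tests no adjusted p was below 0.193, so no shift passed a threshold of 0.05.

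Within the c ring, the ratio of Atp5g1 to Atp5g3 was -1.56, -1.61 and -1.50 in the controls, -2.11, -2.23 and -2.17 in the model and -1.15, -1.98 and -1.68 in BXD. The model libraries lay below all others and did not overlap them. The difference was -0.61 for model against control (exact permutation p = 0.1, adjusted 0.193) and 0.56 for BXD against model (exact p = 0.1). Atp5g1 over Atp5g2 gave -0.46 and 0.77 for the same comparisons, again without overlap. Between BXD and control the first ratio differed by -0.05, with overlapping libraries (exact p = 0.8). Atp5g2 over Atp5g3 was lower by 0.15 in the model and by 0.36 in BXD than in the controls, both without overlap.

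Cox4i1 exceeded Cox4i2 by a log2 ratio of 7.16, 7.70 and 7.14 in the controls, 7.87, 8.77 and 8.13 in the model and 7.82, 8.20 and 8.10 in BXD. Both stressed groups lay above the controls, by 0.92 and 0.71 (exact p = 0.1 each). Cox8a over Cox8b fell by 0.86 in the model, from 1.42, 1.39 and 1.93 to 1.06, 0.43 and 0.68. Cox8b, the form typical of striated muscle and brown fat, had gone from 429, 394 and 256 FPKM to 617, 1402 and 855. The ratio in BXD was 0.69, 1.36 and 0.35, lower than control by 0.78 without overlap. Cox6b1 (LOC688869) over Cox6b2 was 1.32 higher in the model than in the controls, without overlap (exact p = 0.1). Cox6a1 over Cox6a2 differed by -7.93 between BXD and control, without overlap (exact p = 0.1), with BXD libraries at 2.35, 8.64 and 3.11. The size of that difference depends on the pseudocount, as Cox6a2 was at or near 0 FPKM in the controls. Its other comparisons overlapped. Cox7a2 exceeded Cox7a1 by 8.43 to 10.8 in all libraries, and that ratio differed by -0.91 between BXD and the model, without overlap (exact p = 0.1). Cox7a1 was listed at about 1 to 3 FPKM, and RefSeq gives the same symbol to a second entry (LOC687508). The estimated counts of both entries were low and mostly not whole, so the pair of Cox7a2 and Cox7a1 is uncertain. The ratio of Cox7a2 to Cox7a2l overlapped between groups in every comparison. Pairs with Cox7b2 and Cox8c were not analysed here.

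**Figure D3:**
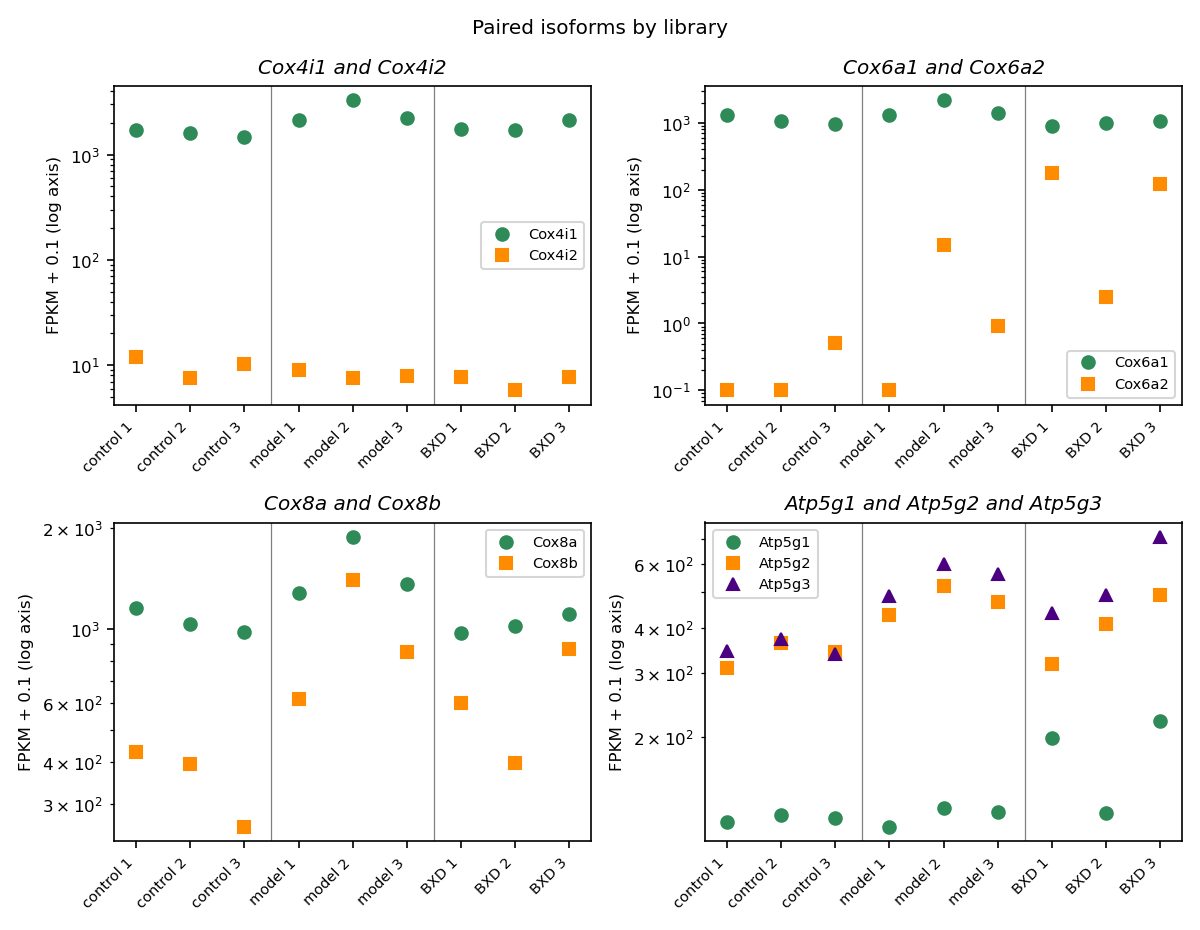
FPKM plus 0.1 on a log axis for each library, by isoform. Cox6a2 rises from near 0 to 178 and 123 FPKM in BXD replicates 1 and 3 with 2.38 in BXD replicate 2, Cox4i2 is at 11.9 or less while Cox4i1 is at 1467 or more, and Atp5g1 is highest in BXD replicates 1 and 3.

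The assembly lists held a smaller share of genes called higher than the members, of which 37 of 45 rose. Of all genes tested, 21.6% were called higher and 20.6% lower in this comparison. With library size alone, 1619 of 14643 genes were called higher and 4910 lower. For complex II assembly, 2 of 3 tested genes rose in the model: Sdhaf1 (RGD1562079 in the table), which helps insert iron-sulfur clusters, by 1.48 (adjusted p 0.00131), and Sdhaf2, which attaches the flavin, by 0.62 (adjusted p 0.0367). With each of the other scalings, or without model replicate 2, 1 of the 3 was called. None of the 6 complex III assembly factors was called by edgeR, 2 had an unadjusted p under 0.05, DESeq2 called 1 higher, library size alone gave 1 lower, and the median was 0.22. Of 23 complex IV assembly factors 9 rose and 1 fell, with a median of 0.49. The counts were 5 higher and 4 lower with library size alone (median 0.21) and 5 higher and 2 lower without model replicate 2 (median 0.27). Higd1a, a protein induced by low oxygen that binds complex IV, rose from 47.4, 46.3 and 32.1 CPM to 89.7, 119 and 89.0 (1.24, adjusted p 0.0013). Cox11 and Sco1, which deliver copper, rose by 0.86 and 0.81 (adjusted p 0.00461 and 0.0055). Coa4 fell by 1.15 (adjusted p 0.0169), from 8.02, 10.8 and 9.39 CPM to 3.59, 5.47 and 3.72.

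For complex V, 3 of 6 assembly factors and inhibitors rose (Atpaf1 by 0.66, Tmem70 by 0.95 and Fmc1 by 0.65) and 1 fell. That one was Atpif1, the inhibitor of reverse ATP hydrolysis, at 47.7, 52.8 and 53.2 CPM in the controls and 43.3, 40.8 and 41.8 in the model, a change of -0.29 (adjusted p 0.0283). It was at 52.8, 49.3 and 49.2 CPM in BXD, within the control range. Without model replicate 2 only 1 of the 6 was called higher and 0 lower, with upper quartile scaling 1 higher and 1 lower, and with library size alone or FPKM 0 higher and 1 lower. Among the carriers that exchange ATP and phosphate, 3 of 5 tested rose: Slc25a5 by 1.14, Slc25a3 by 0.73 and Slc25a4 by 0.64 (adjusted p 0.00293, 0.00348 and 0.0434). Of 14 genes of mitochondrial mass outside the chain 10 rose and 0 fell (median 0.78), led by Tomm20, an import receptor (1.05, adjusted p 0.000755), Phb2 and Tomm22. All 5 genes listed for supercomplex formation and isoform switching rose: Cox7a2l and Higd1a as given above, Higd2a by 0.54, Hif1a, the oxygen-regulated transcription factor, by 0.52, and Lonp1, a matrix protease, by 0.70. Upper quartile scaling left 4 of these 5 calls, as did the fit without model replicate 2, while library size alone left 2 and FPKM 2.

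Of 17 regulators of mitochondrial biogenesis 5 rose (29.4%, beside 21.6% of all genes), 1 fell and 11 did not pass, with a median of 0.35. With library size alone the counts were 2 higher and 2 lower, and the median was 0.09. Ppargc1a, a coactivator of respiratory genes, had the largest change of the list, from 27.0, 15.9 and 12.1 CPM to 146, 293 and 136 in the model and 71.5, 95.1 and 97.9 in BXD. Its model against control value was 3.39 (adjusted p 0.000523). Gabpa rose by 0.49, Tfam, which packages mitochondrial DNA, by 0.60, and Ppargc1b and Esrrg by 1.54 and 0.92. Polrmt, the mitochondrial RNA polymerase, fell by 0.55 (adjusted p 0.0271). Nrf1 was at 29.7, 29.6 and 30.7 CPM in the controls and 29.3, 24.5 and 28.8 in the model (-0.12, adjusted p 0.613), and Esrra gave 0.49 (adjusted p 0.172).

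Markers of some other cell types also changed in the model. Adipocyte markers, 16 of 16 in the table, summed to 7748, 7511 and 6919 CPM in the controls, 17761, 30937 and 19501 in the model and 13356, 13651 and 17689.7 in BXD, and 15 of them were called higher in the model. In BXD against control 12 of the 16 were called higher, with a median of 1.02, beside 16.1% of all genes tested. Of the members, 6 of 45 were called higher there, with a median of 0.33. Brown adipocyte markers, 10 of 10 in the table and with Ppargc1a also among the regulators above, summed to 1194, 1214 and 507 CPM, then 2638, 7082 and 3304, then 957, 1366 and 1572. Of the 9 tested, 6 were called higher in the model, 0 lower, and 3 were not called. In BXD against control 1 of the 9 was called higher and 0 lower, with a median of 0.74. Model replicate 2 was highest and control replicate 3 lowest in both sums, as in most members. Ucp1, the uncoupler that defines brown fat, made up most of the brown adipocyte sum in every library. It was at 862, 945 and 340 CPM in the controls, 1961, 5632 and 2641 in the model and 550.1, 939.7 and 1134 in BXD. Smooth muscle markers went the other way, from 4833 to 7256 CPM in the controls to 2384 to 4107 in the model, with 6 of 10 called lower, but only 2 of 10 without model replicate 2. No marker of either fat list or of smooth muscle was at 0 in all libraries. The part of these tissues in the change of the members was not tested.

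**Figure D4:**
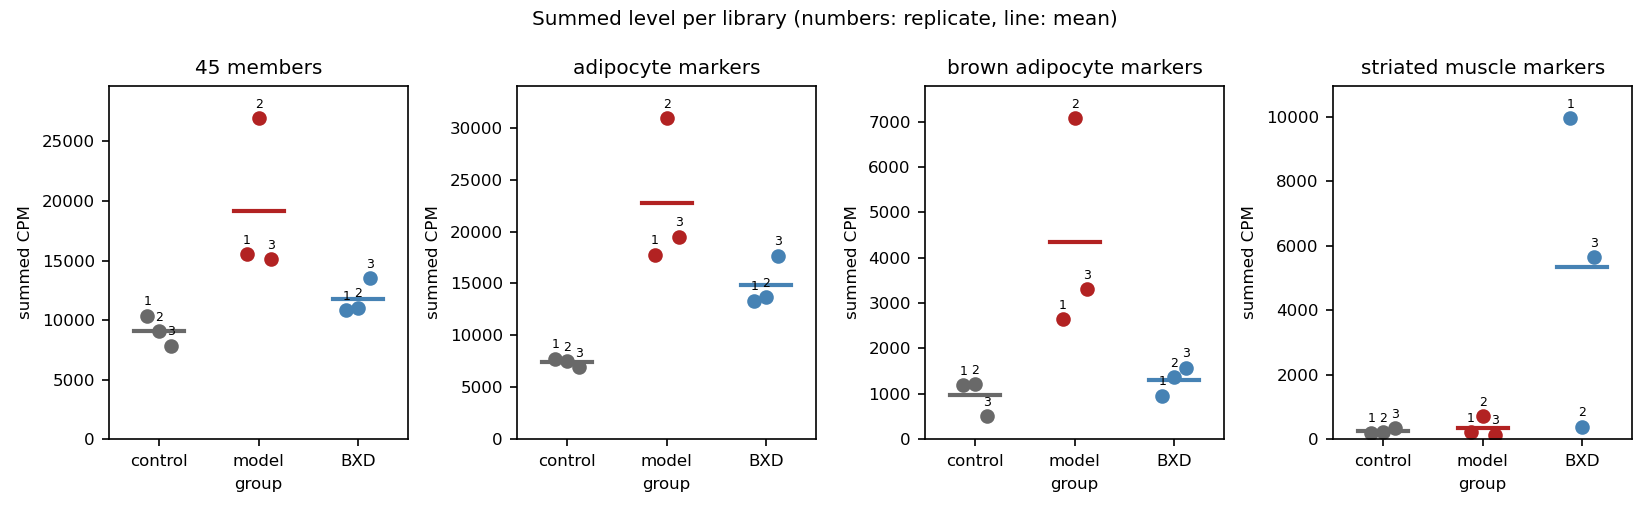
Summed CPM per library (points with replicate numbers, line at the mean) for the 45 members, 16 adipocyte markers, 10 brown adipocyte markers and 26 striated muscle markers. Model replicate 2 is highest in the first 3 panels, and BXD replicates 1 and 3 are highest in the striated muscle panel.

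In BXD against the model, 0 of the 45 members were called by edgeR, as were 0.0615% of all genes tested. At an unadjusted p under 0.05 there were 32 members, beside 20.9% of all genes, and all but 3 of the 45 values were below 0. The median was -0.60 (-0.30 without model replicate 2), against -0.01 over all genes. For 30 members every BXD library lay below every model library, a pattern of 11.8% of tested genes. DESeq2 called 14 members lower, beside 2.41% of genes, and limma-voom 0. The authors' deposited table gave 3 lower at a q-value under 0.05, beside 0.954% of its genes. The smallest p-values were those of Cox6a1, Cyc1 and Cox8a. Cox6a1 was at 370, 639 and 367 CPM in the model and 253, 268 and 282 in BXD, a change of -0.78 ± 0.22 (adjusted p 0.125). Cyc1 was at 392, 699 and 389 CPM against 229, 246 and 310 (-0.92 ± 0.26, adjusted p 0.125), and Cox8a changed by -0.59 ± 0.17 (adjusted p 0.126). The lowest model library exceeded the highest BXD library for both genes given in full.

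Medians by complex were -0.77 for II, -0.71 for III, -0.51 for IV and -0.50 for V, and Cycs stood at -1.01 ± 0.31 (adjusted p 0.137). The c ring had a median of -0.06, and for none of its 3 genes did every BXD library lie below every model library. Atp5g1 had a positive value, 0.46 ± 0.17 (adjusted p 0.18), and was called higher without BXD replicate 2. Of the 37 genes taken by name as complex I subunits, 0 were called by edgeR and 12 were called lower by DESeq2. At an unadjusted p under 0.05 there were 32, and the median was -0.61.

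Markers of other cells also differed between BXD and the model. Smooth muscle markers summed to 6724 to 10273 CPM in BXD against 2384 to 4107 in the model, with a median log2 fold change of 1.27. Of the 10, 9 had an unadjusted p under 0.05, 0 were called by edgeR or limma-voom and 8 by DESeq2. Erythrocyte markers, 8 of 8 in the table, went the other way, to 6227 to 8486 CPM in BXD from 13157 to 19925 in the model. Their median was -1.05, and all 8 had an unadjusted p under 0.05, with 0 called by edgeR or limma-voom and 8 by DESeq2. Neither pair of ranges overlapped. The 16 adipocyte markers had a median of -0.52, and the brown adipocyte markers one of -1.12 over the 9 tested. The part of these cells in the values of the members was not tested.

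In BXD against control, 6 members rose and 0 fell, while 16.1% of tested genes were called higher and 14.3% lower. They were Atp5g1, Atp5g2, Atp5g3, Cox6a2, Cox7a2l and Cox7a2l2. Of these, the call of Cox6a2 is a description only and the value of Cox7a2l2 is uncertain, for the reasons given with each gene. Under the other scalings 4 members were called higher in each case, and the median was 0.20 with the upper quartile, 0.12 with library size alone and 0.13 with FPKM. The share of higher among all calls went from 53.0% to 37.2%, 27.6% and 27.2%, and the median of all genes to between -0.23 and -0.14. With the main scaling the member median was 0.33, 42 values were above 0, and 19 members had groups that did not overlap with BXD higher, against 23.8% of genes tested. Without model replicate 2, which belongs to neither group of this comparison, 14 members were called. The count was 2 without control replicate 1, 3 without control replicate 2 and 2 without control replicate 3, and the authors' deposited table gave 18 higher at a q-value under 0.05, beside 14.8% of its genes. Atp5g1 and Atp5g3 were called in all of these edgeR fits. This comparison shares its controls with model against control, so they are not independent of each other.

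Atp5g3 was at 218, 233 and 332 CPM in BXD against 142 to 153 in the controls (0.83 ± 0.17, adjusted p 0.00701). Atp5g1 reached 62.7, 40.2 and 66.7 CPM against 33.8 to 34.2 (0.73 ± 0.17, adjusted p 0.0133), with BXD replicate 2 inside the range of the model libraries, 39.0 to 45.1. Atp5g2 was at 115, 143 and 167 CPM against 95.3 to 109.9 (0.46 ± 0.15, adjusted p 0.0487), and Cox7a2l at 172, 197 and 214 CPM against 146 to 155 (0.36 ± 0.11, adjusted p 0.0424). None of the complex II, complex III or F1 head genes was called in this comparison by edgeR over all 9 libraries, whereas Uqcrq, Atp5c1 and Atp5e were without model replicate 2. Over all 9 libraries, 2 F1 head genes had an unadjusted p under 0.05, as did 42.7% of all genes tested.

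Cox6a2 had a summed, depth-scaled count ratio of 876 between BXD and control (exact 95% interval 157 to 34635, counting error only; adjusted p 0.0142), and lost its call without control replicate 1, 2 or 3. Over all 9 libraries it was also not called by limma-voom, nor by edgeR with the replicate number as a further term. BXD replicates 1 and 3 carried 439 and 315 counts and replicate 2 only 6. Cox6a2 could pass the filter on low counts through the libraries where it was high, so its call is a description only. Markers of striated muscle, 26 of 27 in the table, summed to 9959, 384 and 5643 CPM in BXD replicates 1 to 3, 204 to 340 in the controls and 208, 707 and 138 in the model. Against the controls, edgeR called 20 of 21 tested higher, beside 16.1% of all genes tested. The fit of FPKM called 11 and limma-voom 1. These genes could pass the filter on low counts through the BXD libraries, so the count is a description only. Acta1, skeletal muscle actin, was at 2389, 21.7 and 1575 CPM in BXD, and Ckmt2, the muscle form of mitochondrial creatine kinase, at 63.2, 0.392 and 41.4. Slc25a4, the muscle form of the ATP carrier, was at 509.9, 271 and 485 CPM in BXD. Atp5g1, with the BXD values given above, was also lowest in replicate 2 of that group, though highest in replicate 3. Model replicate 2, the model library with the most striated muscle marker counts, was also the one with 36 counts of Cox6a2. The part of striated muscle in the levels of Cox6a2 and Atp5g1 was not tested.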

How the data were processed

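The 9 libraries of rat gastric lymphatic vessel held poly(A) RNA and were read on an Illumina HiSeq machine, as the labels' protocols state. Tools given by the submitters' processing notes are HISAT2 2.2.4, Bowtie2 2.2.5 and the Rnor_6.0 build; the counting tool and strandedness are not given in the sources used here. Estimated counts per gene, which need not be whole (88.8% were, within 1e-09), were deposited by the authors. The authors also deposited FPKM, used for levels between genes, and TPM, which was not used. Log2 fold changes between groups, with DESeq2 p-values and q-values, were computed by the authors in a separate deposited table, per the file headers. A further 45 columns of per-sample values were not used here.

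Counts were rounded, filtered with filterByExpr to 14643 genes, scaled by TMM and fitted with edgeR 4.0.16 (R 4.3.3; glmQLFit, robust) over all 9 libraries with group as the only term; SE is the log2 fold change divided by the square root of F. A gene counts as called at an adjusted p (Benjamini-Hochberg) under 0.05. The biological coefficient of variation was 23.3%, with 6 residual degrees of freedom. A floor of 3 counts is 0.195 to 0.269 CPM. Replicates differed beyond sampling noise (chi-square per degree of freedom 14.0 to 52.1). Alternatives were DESeq2 1.42.0, limma 3.58.1 (voom, and FPKM with a pseudocount of 0.1 or 1), other scalings, no filter, a replicate block and leaving out each library; the scripts were tested on simulated data. Promoter windows came from RefSeq GRCr8, matched by gene ID or symbol. Genes named in full were all of complex II, Cycs, per complex the 2 largest and 2 smallest changes and the highest level, isoform pairs, uncalled members, up to 3 called genes a pathway list with any called the other way, and a few added for their role or after their values were seen. Members, lists and rules were chosen with earlier results of these data known. An omeprazole group named in the protocol was not analysed here.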

Additional observations from a re-analysis of the deposited data

How the results depend on the processing

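No call of a member changed direction under any alternative run. The number of members called higher in model against control ran from 27 to 36 when 1 library was left out, with 0 lower. For BXD against the model, 0 to 1 were called higher when 1 library was left out (the 1, Atp5g1, without BXD replicate 2), 0 were called lower, and DESeq2 called 14 lower. For BXD against control, 2 to 14 were called higher when 1 library was left out. The cause of these shifts was not tested, apart from fewer libraries in the fits that leave 1 out.

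Uncalled log2 fold changes for model against control that turned were those of Atp5g1 (-0.0026 with library size alone), Atp5sl (-0.067 with library size alone, -0.062 and -0.060 with FPKM at a pseudocount of 0.1 and 1), Atp5f1 (from -8.75 to 9.11 leaving out 1 library) and Cox4i2 (from -0.24 to 0.090). Isoform ratios that turned on leaving out 1 library, all with overlapping groups, were Cox4i1 over Cox4i2 (-0.41 to 0.040) and Cox8a over Cox8b (-0.20 to 0.30) for BXD against the model, Cox7a2 over Cox7a1 (-0.086 to 0.90) for model against control, and Cox7a2 over Cox7a2l (-0.15 to 0.070) and Atp5g1 over Atp5g3 (-0.28 to 0.14) for BXD against control.

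Libraries with the same replicate number did not deviate together (correlations of -0.43 to 0.09, and no library matched its own number best), so the numbers are not taken as pairs. With the replicate block, 34 members were called higher in model against control, 0 in BXD against the model and 4 in BXD against control, with 0 lower in each. Depth limits Cox6a2, Cox4i2, Cox6b2 and Cox7a2l2, which had few counts.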
